A study of Sus scrofa with 15 samples.

Results

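The levels of 10 genes were followed in the testes of neonatal male piglets. Of these, 9 are muscle contractile genes that peritubular myoid and vascular smooth muscle cells are known to express, ACTA2, ACTG2, MYH11, MYL9, TPM2, TAGLN, CNN1, LMOD1 and DES. TAGLN3, a transgelin known mainly from neurons, was listed with them. They were taken by symbol from the gene table, where all 10 of 10 were listed among 30476 rows, and all 10 passed the expression filter. Testis RNA was sequenced from 15 piglets at postnatal day 21, with 1 library per piglet and 3 libraries in each of 5 diet groups. All piglets came from Dutch Landrace Duroc sows, had suckled for 2 days and were then fed from bowls. The groups received sow milk (Sow), a cow's milk formula (Milk), a soy formula (Soy), the cow's milk formula with 17-beta-estradiol at 2 mg/kg/d (M + E2), or the cow's milk formula with pure genistein at 84 mg/L of diet (M + G). Piglets came from many litters and were assigned to diets at random. In the names of the columns 1 Sow and 1 Soy library carry no number and are called Sow unnumbered and Soy unnumbered.

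Peritubular myoid cells are flat cells that wrap the seminiferous tubules, and their contraction moves the tubule contents toward the rete testis. Smooth muscle contracts when phosphorylation of the regulatory light chain lets smooth muscle myosin pull on actin filaments, which tropomyosin, calponin and transgelin cover and leiomodin nucleates. The same proteins are made by the muscle cells of blood vessels, so these genes mark contractile cells in general and not the tubule wall alone.

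Between 6097552 and 9488579 reads per library fell on genes (median 8198038). Levels are CPM, read counts scaled to library size by the TMM method over all 15 libraries, and are not corrected for gene length, so levels of different genes are not compared. The quasi-likelihood test of edgeR was fitted to all diets at once, over 15634 genes. A call needed an adjusted p (Benjamini-Hochberg) no higher than 0.05 and a difference of at least 2-fold. Because Sow 2 was not part of this fit, the comparisons with Sow rest on Sow unnumbered and Sow 3. Sow 2 had the lowest TMM factor (0.762), and it was the lowest library in 9 of the 10 genes, as it was in 24.0% of all genes.

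Within diets, 9 of the 10 genes differed more between piglets than most genes did, with an SD of log2 CPM larger than in 79.2% (MYL9) to 99.9% (ACTG2) of genes, while TAGLN3 exceeded 39.2%. In 9 of the 10 genes, all but TAGLN3, the 3 highest of the 15 libraries were Soy 3, Milk 2 and M + G 2, which belong to different diets. The same 3 libraries were highest in 5.04% of the 15328 genes measured over all 15 libraries. Reads on the 10 genes made up 0.580% of all reads in Soy 3, 0.452% in Milk 2 and 0.356% in M + G 2, against 0.0409% to 0.154% in the other 12 libraries. In whole tissue, fewer cells of a type and less RNA per cell cannot be told apart.

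**Figure D1:**
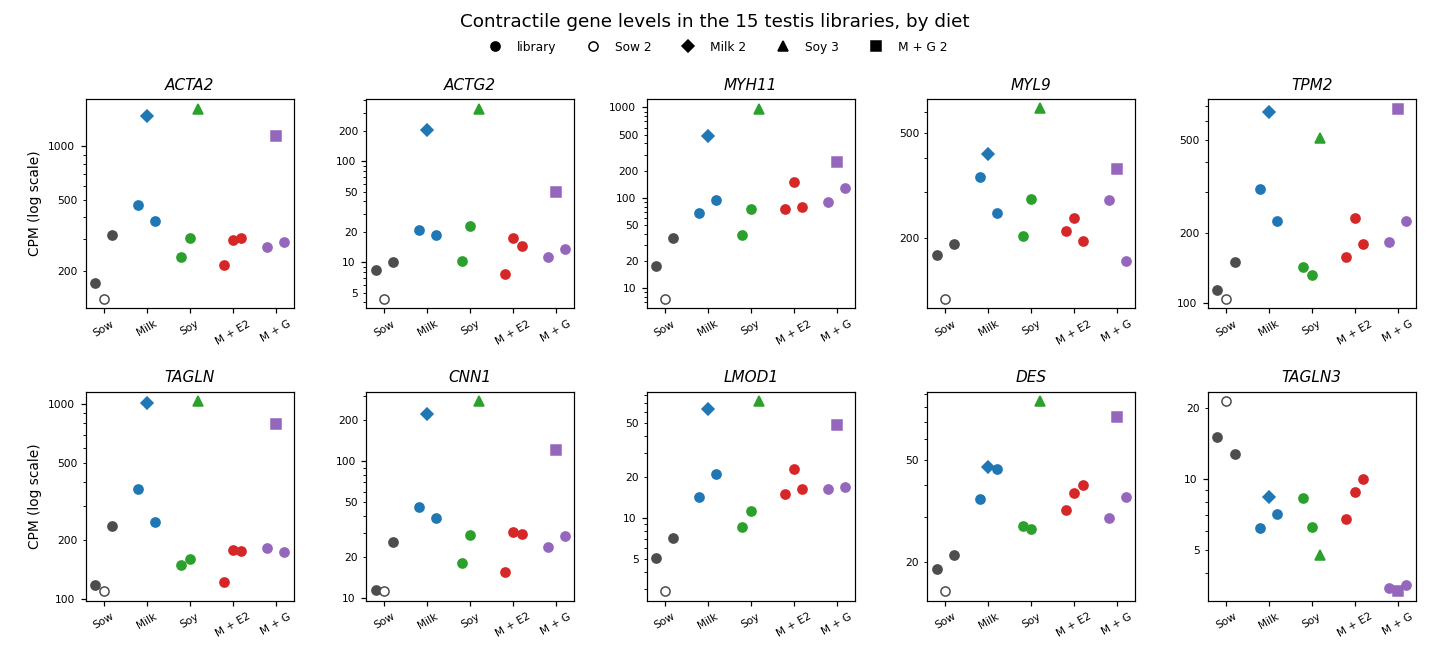
Level of each contractile gene (CPM, log scale) in every library, by diet. Each point is 1 library; Sow 2 is open, and Milk 2 (diamond), Soy 3 (triangle) and M + G 2 (square) have their own symbols. Those 3 libraries stand highest in every panel but that of TAGLN3, where the Sow libraries are highest.

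ACTA2 encodes alpha smooth muscle actin, the usual marker of peritubular myoid cells after birth (ENSSSCG00000010447, chromosome 14 from 100868145 to 100886732, Sscrofa11.1). Its level was 172, 140 and 318 CPM in the Sow libraries (unnumbered, 2 and 3), 470, 1473 and 380 CPM in Milk 1 to 3, and 238, 304 and 1633 CPM in the Soy libraries (unnumbered, 2 and 3). In M + E2 1 to 3 it was 216, 298 and 305 CPM, and in M + G 1 to 3 it was 273, 1140 and 290 CPM. The M + E2 libraries were thus close together, while Milk, Soy and M + G each held a library far above the other two. The mean for Sow was 210 ± 95.2 CPM (SD, n = 3) and that for M + E2 273 ± 49.7 CPM, while Milk had 774 ± 607, Soy 725 ± 787 and M + G 568 ± 496 CPM. Sow overlapped every diet except Milk.

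ACTG2 encodes gamma smooth muscle actin, the form abundant in visceral smooth muscle (ENSSSCG00000008294, chromosome 3 from 69097366 to 69121542). It had 8.32, 4.37 and 10.04 CPM in Sow, 20.9, 202 and 18.6 CPM in Milk, and 10.2, 23.0 and 333 CPM in Soy. The values were 7.64, 17.3 and 14.3 CPM in M + E2 and 11.15, 49.9 and 13.4 CPM in M + G. This gene had the widest spread of the 10, with a within-diet SD of 1.60 on the log2 CPM scale, larger than in 99.9% of genes (median of all genes 0.34). Soy 3 lay 76.1-fold above Sow 2. ACTA2 and ACTG2 are near-identical over their coding parts, and short reads could be counted on either, so their separate levels are uncertain. The other muscle actins, ACTA1 and ACTC1, were at most 1.46 and 0.787 CPM in any library.

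MYH11 encodes the heavy chain of smooth muscle myosin, the motor of contraction (ENSSSCG00000000146, chromosome 3 from 7002667 to 7143093). It had 17.6, 7.72 and 35.6 CPM in Sow, 68.7, 479 and 94.8 CPM in Milk, and 38.4, 75.4 and 973 CPM in Soy. The values were 75.0, 149 and 78.9 CPM in M + E2 and 89.8, 248 and 130 CPM in M + G. All 3 Sow libraries lay below all 12 formula libraries. Soy 3 stood 126-fold above Sow 2, the widest range of the 10 genes, and the within-diet SD was 1.44 on the log2 scale.

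MYL9 encodes the regulatory light chain that is phosphorylated to start contraction (ENSSSCG00000036402, chromosome 17 from 39788165 to 39795240). It had 174, 119 and 190 CPM in Sow, 341, 416 and 250 CPM in Milk, and 203, 282 and 616 CPM in Soy. The values were 214, 238 and 195 CPM in M + E2 and 280, 366 and 164 CPM in M + G. Its range was narrow beside that of the heavy chain gene, with Soy 3 at 5.19-fold the level of Sow 2 and a within-diet SD of 0.51. All Milk and Soy libraries exceeded the Sow libraries, M + E2 3 stood barely above Sow 3, and M + G 3 lay below it.

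TPM2 encodes beta-tropomyosin, which lies along the actin filament (ENSSSCG00000005316, chromosome 1 from 236402249 to 236410390). It had 113, 105 and 150 CPM in Sow, 307, 658 and 225 CPM in Milk, and 143, 132 and 507 CPM in Soy. The values were 158, 231 and 179 CPM in M + E2 and 183, 681 and 225 CPM in M + G. Here M + G 2 and not Soy 3 was the highest library. All Milk, M + E2 and M + G libraries exceeded the Sow libraries, but Soy unnumbered and Soy 2 did not exceed Sow 3.

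TAGLN encodes transgelin (SM22 alpha), an actin-binding protein of smooth muscle (ENSSSCG00000015073, chromosome 9 from 44561756 to 44567385). It had 117, 110 and 236 CPM in Sow, 368, 1017 and 250 CPM in Milk, and 150, 161 and 1041 CPM in Soy. The values were 123, 178 and 176 CPM in M + E2 and 183, 794 and 174 CPM in M + G. Apart from the 3 high libraries, all Soy, M + E2 and M + G libraries lay within the range of Sow.

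CNN1 encodes calponin, which binds actin and slows myosin (ENSSSCG00000013614, chromosome 2 from 70183370 to 70190756). It had 11.4, 11.2 and 25.7 CPM in Sow, 46.0, 222 and 38.5 CPM in Milk, and 18.1, 28.7 and 276 CPM in Soy. The values were 15.4, 30.3 and 29.5 CPM in M + E2 and 23.4, 120 and 28.2 CPM in M + G. The Milk libraries alone were all above Sow. The within-diet SD was 1.32, larger than in 99.5% of genes.

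LMOD1 encodes leiomodin 1, which starts new actin filaments in smooth muscle (ENSSSCG00000031201, chromosome 10 from 24165293 to 24194823). It had 5.10, 2.91 and 7.17 CPM in Sow, 14.2, 63.2 and 21.0 CPM in Milk, and 8.66, 11.3 and 71.9 CPM in Soy. The values were 15.0, 22.7 and 16.4 CPM in M + E2 and 16.4, 48.1 and 17.0 CPM in M + G. As for MYH11, all 3 Sow libraries lay below all 12 formula libraries.

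DES encodes desmin, the muscle intermediate filament protein (ENSSSCG00000020785, chromosome 15 from 121428539 to 121435426). It had 18.8, 15.4 and 21.3 CPM in Sow, 35.3, 46.8 and 46.2 CPM in Milk, and 27.7, 26.9 and 84.5 CPM in Soy. The values were 32.0, 37.2 and 40.1 CPM in M + E2 and 29.7, 73.6 and 36.0 CPM in M + G. DES was the third gene with every Sow library below every formula library, a pattern of 3 of the 10 genes and of 6.32% of all genes. In Milk its highest library stood barely above the next.

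TAGLN3 encodes the neuronal transgelin (ENSSSCG00000037190, chromosome 13 from 147740913 to 147754845), and it ran the other way. It had 15.0, 21.4 and 12.8 CPM in Sow, 6.20, 8.42 and 7.08 CPM in Milk, and 8.27, 6.24 and 4.78 CPM in Soy. The values were 6.78, 8.80 and 9.99 CPM in M + E2 and 3.46, 3.34 and 3.55 CPM in M + G. All 3 Sow libraries lay above all 12 formula libraries, which was so for 7.73% of genes, and all 3 M + G libraries lay below every other library. Diet accounted for 89.8% of the sum of squares of TAGLN3 on the log2 CPM scale, against 48.7% for the median gene and between 33.9% and 52.8% for the other 9 genes. The counts behind these values are small, from 27 to 147 reads per library.

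In the order of the group means, Sow was lowest and M + E2 next lowest in all 9 genes other than TAGLN3. The places above them rested on the 3 high libraries: ranked by the middle library of each diet, Sow was still lowest in all 9, but M + E2 was next lowest in 1 and Soy in 5. Milk was highest by the middle library in 7 of the 9. TAGLN3 gave a single order by either measure, Sow, M + E2, Milk, Soy and M + G from high to low. In that order the libraries of M + E2 and Milk overlapped, as did those of Milk and Soy, while Sow and M + E2 did not, nor did Soy and M + G.

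Against Sow, the question was whether formula feeding, with or without E2 or genistein, was accompanied by a different level of these genes. One gene was called, TAGLN3, which fell in M + G with a log2 fold change of −2.04 (SE 0.259, 95% interval −2.60 to −1.49, adjusted p = 0.00940). In M + G against Sow, 1 of the 10 genes was thus called, where 0.0576% of all genes were. Leaving out any 1 of the M + G libraries ended this call, with adjusted p = 0.0784 without M + G 1, 0.0989 without M + G 2 and 0.113 without M + G 3 (range over 10 alternatives 4.90e-08 to 0.113), while the log2 fold change stayed between −2.40 and −2.004. TAGLN3 had log2 fold changes of −1.13 in Soy (SE 0.252, adjusted p = 0.320), −0.99 in Milk (SE 0.251, adjusted p = 0.360) and −0.77 in M + E2 (SE 0.250, adjusted p = 0.0624).

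The other 9 genes had higher fitted levels in every formula diet than in Sow, except TAGLN in M + E2, but none of these differences was called. The median log2 fold change of the 10 genes was 1.60 in Milk and 1.46 in Soy, and it was 1.29 with genistein and 0.41 with E2 in the formula, while the median of all genes was between 0.00 and 0.02. In Milk 0 of the 10 genes were called by edgeR's quasi-likelihood test (0.0192% of all genes), and 5 had an unadjusted p under 0.05 (12.1% of genes), of which MYH11, LMOD1, TPM2 and DES were higher. In Soy 0 were called (0.0128%), and 6 had an unadjusted p under 0.05 (15% of genes), of which MYH11, ACTG2, LMOD1, DES and MYL9 were higher. In M + E2 0 were called (5% of genes), and TAGLN3 alone had an unadjusted p under 0.05 (33.8%). Without any 1 of the M + E2 libraries, 6 genes in all were called in M + E2 against Sow (0.0385% or 0.0386%). In M + G TAGLN3, DES and LMOD1 had an unadjusted p under 0.05 (23.6%). DESeq2's Wald test called none of the 10 in Milk (0.192% of genes) or M + E2 (8.80%) and called TAGLN3 in Soy (0.217%), while in M + G it called TAGLN3 as well (2.19%). The exact test of edgeR called none in Milk (0.124% of genes) or Soy (0.367%), MYH11 and LMOD1 in M + E2 (12.6%), and MYH11, TAGLN3, DES, TPM2 and LMOD1 in M + G (6.48%). The comparisons with Sow share their control libraries and are not independent of each other.

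**Figure D2:**
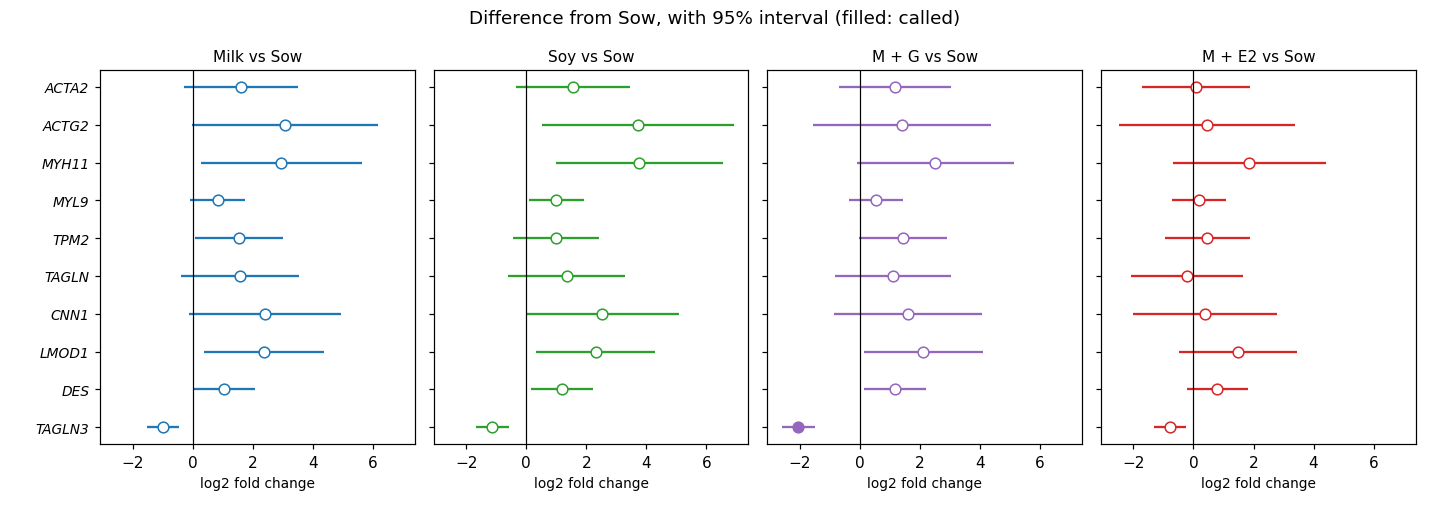
Log2 fold change of each contractile gene against Sow (horizontal axis) in the 4 formula diets, with lines for the 95% interval of edgeR's quasi-likelihood fit. Filled points are called, and only TAGLN3 in M + G is, at −2.04. The interval, which is not adjusted for the number of genes, excludes 0 for 5 genes in Milk, 6 in Soy, 3 in M + G and 1 in M + E2.

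The intervals were wide for the genes with the largest differences. MYH11 was 3.77 higher on the log2 scale in Soy (95% interval 0.98 to 6.56, adjusted p = 0.320), 2.96 in Milk (0.28 to 5.63, adjusted p = 0.395), 2.52 in M + G (−0.10 to 5.14, adjusted p = 0.226) and 1.86 in M + E2 (−0.69 to 4.40, adjusted p = 0.280). ACTG2 was 3.73 higher in Soy (0.53 to 6.92, adjusted p = 0.322) and 0.45 in M + E2 (−2.48 to 3.38, adjusted p = 0.841). ACTA2, the standard marker, differed by 1.62 in Milk (−0.28 to 3.51, adjusted p = 0.460) and by 0.09 in M + E2 (−1.70 to 1.89, adjusted p = 0.948).

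Whether the libraries overlapped, on the scale of the 14 libraries fitted, gave a further description of the same contrasts. Every Milk library exceeded both Sow libraries in 9 of the 10 genes, where 14% of all genes did so. The corresponding counts were 5 in Soy (18.2% of genes), 5 in M + G (25.5%) and 4 in M + E2 (30.2%), the last being MYH11, LMOD1, DES and TPM2.

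Without Soy 3, Milk 2 and M + G 2, an alternative chosen after the values were seen, the spread shrank and the differences from Sow were smaller in 3 diets. The median log2 fold change of the 10 genes was then 0.99 in Milk, 0.36 in Soy, 0.41 in M + G and 0.41 in M + E2. MYH11 and LMOD1 were called higher in M + E2 than in Sow, with log2 fold changes of 1.85 (SE 0.407, adjusted p = 0.0207) and 1.48 (SE 0.267, adjusted p = 0.0186), where 9.95% of genes were called. Over 10 alternatives the adjusted p ran from 0.00109 to 0.475 for MYH11 and from 0.000867 to 0.427 for LMOD1 in this comparison. In Milk against Sow none was called (0.0326% of genes), and all 10 genes had an unadjusted p under 0.05 (16.3% of genes).

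Against Milk, the comparisons asked what E2, genistein or a soy base was accompanied by in formula-fed piglets. The quasi-likelihood test of edgeR called 0 of the 10 genes in each of these comparisons (M + E2, M + G and Soy), where 0% of all genes were called. DESeq2's Wald test called 0 of the 10 genes in M + E2 (0.78% of all genes), M + G (0.0128%) and Soy (0.0384%). The exact test of edgeR called TAGLN in M + E2 (0.636% of genes) and none of the 10 in M + G (0.0139%) or Soy (0.0348%). M + E2 had lower fitted levels than Milk in all genes but TAGLN3, with a median log2 fold change of −1.09 (all genes −0.03). At an unadjusted p under 0.05, TAGLN (−1.80, 95% interval −3.51 to −0.08, adjusted p = 0.269) and ACTG2 (−2.63, −5.20 to −0.06, adjusted p = 0.275) were lower, as 10.5% of genes were. All M + E2 libraries lay below all Milk libraries for 5 genes, ACTA2, ACTG2, TAGLN, CNN1 and MYL9, and 8.79% of genes did so. Without the 3 high libraries the median was −0.51.

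With the 3 high libraries included, M + G and Soy were near Milk in most of these genes, but the intervals were too wide to show likeness. TAGLN3 was 1.06 lower on the log2 scale in M + G than in Milk (SE 0.243, 95% interval −1.58 to −0.53, adjusted p = 0.941), the only 1 of the 10 with an unadjusted p under 0.05 (2.60% of genes). ACTA2 differed by −0.43 in M + G (95% interval −2.03 to 1.17) and by −0.05 in Soy (−1.65 to 1.55) relative to Milk. Milk and M + G libraries of the same number deviated together, and with that number as a block ACTG2 was −1.19 (SE 0.277) and CNN1 −0.77 (SE 0.178) in M + G against Milk, each with a blocked adjusted p = 0.746. In that fit 5 of the 10 genes (ACTA2, TAGLN, TAGLN3, CNN1 and ACTG2) had an unadjusted p under 0.05 and were lower in M + G, as 3.67% of all genes were, and 0 genes were called among the 10 or among all genes. Without the block the SE was 0.972 for ACTG2 and 0.810 for CNN1. The block was chosen from these data, in which Milk 2 and M + G 2 were both high for these genes except TAGLN3. Its unadjusted p-values are therefore a description only. In the fit of all diets, 0 of the 10 genes had an unadjusted p under 0.05 in Soy against Milk, where 2.44% of all genes did. Without the 3 high libraries the median log2 fold change against Milk was −0.59 in Soy and −0.51 in M + G. By the quasi-likelihood test 6 of the 10 genes then had an unadjusted p under 0.05 in Soy (2.44% of genes). In M + G 2 did (2.67%). All of these were lower than in Milk, and 0 of the 10 genes were called.

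Soy and M + E2 were compared directly because the soy formula was examined for likeness to an estrogen. By edgeR's quasi-likelihood test, DESeq2's Wald test and edgeR's exact test 0 of the 10 genes were called (0.147%, 0.915% and 1.39% of all genes), and 3 had an unadjusted p under 0.05 and were higher in Soy (8.37% of genes): ACTG2 with a log2 difference of 3.28 (95% interval 0.66 to 5.90, adjusted p = 0.282), CNN1 with 2.16 (0.02 to 4.30, adjusted p = 0.380) and MYL9 with 0.83 (0.03 to 1.63, adjusted p = 0.371). The median of the 10 genes was 1.15, and it was −0.12 without the 3 high libraries, of which Soy 3 belongs to this comparison. Between M + E2 and M + G, TAGLN3 was 1.27 higher in M + E2 (SE 0.242, adjusted p = 0.501, 0% of genes called). DESeq2's Wald test called it there (adjusted p = 0.00980, range over 12 alternatives 0.00980 to 1.00, 0.102% of genes called), as did edgeR's exact test (0.674%). Between Soy and M + G it was 0.92 higher in Soy (SE 0.243, adjusted p = 0.826, 0% called). The test of any difference among the 5 diets was passed by 0 of the 10 genes (0.064% of genes), and TAGLN3 (adjusted p = 0.0687) and ACTG2 (adjusted p = 0.259) had an unadjusted p under 0.05 there (18.1% of genes). TAGLN3 passed DESeq2's likelihood ratio test, as 6.81% of genes did.

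The genes moved together across piglets, apart from TAGLN3. Over the 15 libraries the 36 pairs among the other 9 genes had a median Pearson's r of 0.894 on log2 CPM (range 0.805 to 0.993), given as a description since all values share the same libraries. Over the 12 libraries other than the 3 high ones the median was 0.756 (0.479 to 0.977). TAGLN3 had negative r with all 9, from −0.677 to −0.410 over the 15 libraries.

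The proportions among the contractile genes were not constant, and the 3 high libraries differed from each other in them. For every 100 ACTA2 reads there were 20.4 ACTG2 reads in Soy 3 and 13.7 in Milk 2, but 4.38 in M + G 2, within the 3.13 to 7.57 of the remaining libraries. MYH11 reads per 100 ACTA2 reads numbered 10.2, 5.53 and 11.2 in Sow, 14.6, 32.5 and 24.9 in Milk, and 16.1, 24.8 and 59.6 in Soy. The M + E2 libraries had 34.8, 49.8 and 25.9 and the M + G libraries 32.9, 21.8 and 44.7. Every formula library thus had more MYH11 per ACTA2 than any Sow library. LMOD1 did likewise, with 2.09 to 2.97 reads per 100 ACTA2 reads in Sow and 3.02 to 7.61 in the formula libraries. The gap for LMOD1 was very narrow, between Sow unnumbered (2.97, from 38 LMOD1 reads) and Milk 1 (3.02, from 96). DES had fewer in the high libraries, with 3.18 in Milk 2, 5.17 in Soy 3 and 6.45 in M + G 2, against 6.69 to 14.8 in the others. TAGLN stayed within 53.1 to 78.4 in all 15 libraries.

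**Figure D3:**
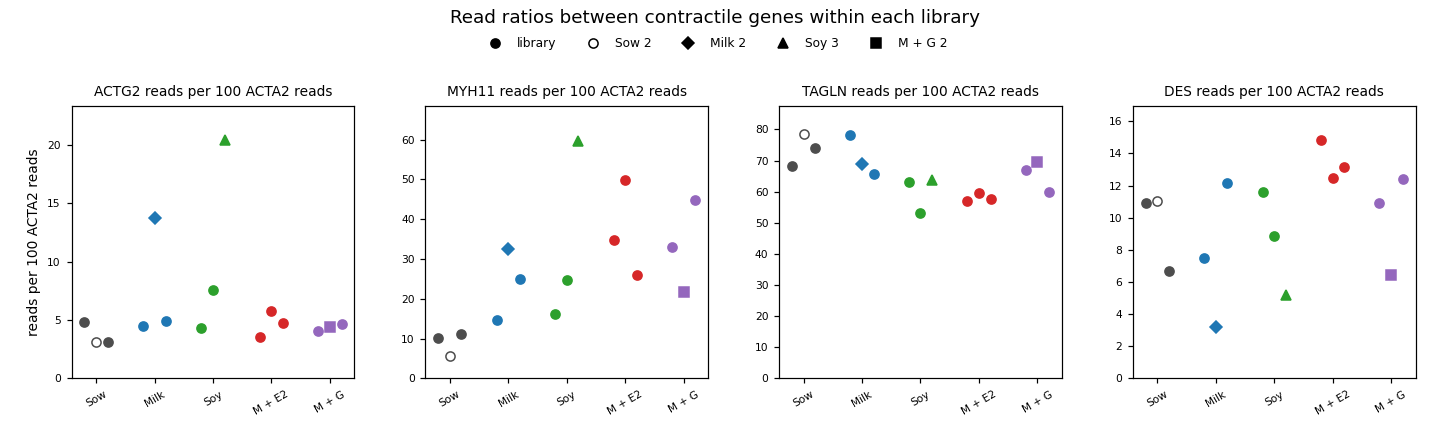
Reads of ACTG2, MYH11, TAGLN and DES per 100 ACTA2 reads (vertical axes from 0) in each library, by diet, with the symbols of the plot of levels. ACTG2 stands out in Soy 3 (20.4) and Milk 2 (13.7), MYH11 is lowest in the 3 Sow libraries (5.53 to 11.2), and DES is lowest in Milk 2 and Soy 3.

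Genes that regulate contraction took part in the same pattern. The list held 16 such genes, among them MYLK (myosin light chain kinase), CALD1 (caldesmon), SMTN (smoothelin), KCNMB1 (a subunit of the calcium-activated potassium channel) and CACNA1C (the L-type calcium channel). None of the 16 was called in any comparison. Soy 3, Milk 2 and M + G 2 were the 3 highest libraries in 9 of the 16. KCNMB1 had 24.1 CPM in Soy 3, 11.3 in Milk 2 and 8.04 in M + G 2, and 0.537 to 3.32 CPM elsewhere. Unadjusted p was under 0.05 and the level higher than in Sow for 8 genes in Milk, 8 in Soy, 6 in M + G and 4 in M + E2, against 6.13%, 7.53%, 9.88% and 14.6% of all genes.

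Of 19 genes that anchor actin to the membrane and matrix, 10 had the same 3 highest libraries. FLNA (filamin A) had 1956 CPM in Soy 3, 1196 in Milk 2 and 1054 in M + G 2, and 121 to 842 CPM elsewhere. PDLIM3, a protein of the muscle Z-disc, went with TAGLN3 instead, with 38.7, 58.4 and 57.4 CPM in Sow and 16.8 to 24.3 CPM in the 12 formula libraries. It was called lower in M + E2 (log2 fold change −1.38, SE 0.198, adjusted p = 0.0188) and in M + G (−1.22, SE 0.198, adjusted p = 0.0497). TLN1 (talin) was called higher in M + E2 than in Sow (1.35, SE 0.373, adjusted p = 0.0466), and no other gene of this list was called. Leaving out any 1 library of M + E2 ended both calls in M + E2 (adjusted p from 0.0655 to 0.109 for PDLIM3 and from 0.0692 to 0.132 for TLN1), and leaving out any 1 of M + G ended that of PDLIM3 in M + G (0.143 to 0.199). The call of PDLIM3 in M + G was also lost without the filter (0.0529) and with at least 10 reads in every library (0.0544). It was lost without the 3 high libraries as well (0.0716).

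SRF, the factor that with the myocardin family drives smooth muscle genes, had 28.1, 22.4 and 28.9 CPM in Sow and 39.1 to 65.3 CPM in the formula libraries. Its log2 fold change was between 0.63 and 0.82 in the 4 formula diets, below the 2-fold limit, and it was past the adjusted p threshold in M + E2 (0.82, SE 0.187, adjusted p = 0.0374), though not without any 1 of the M + E2 libraries (0.0655 to 0.123). SRF did not follow the 3 high libraries, since M + E2 2 was highest. MYOCD (myocardin) was highest in Soy 3 with 14.9 CPM, then Milk 2 with 6.93, and had 1.89 to 5.84 CPM in the rest. None of the 4 genes in this list was called.

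In the list of 15 peritubular receptors and signals, PDGFRB and GDNF were called higher in M + E2 than in Sow, and no other call was made. PDGFRB, the platelet-derived growth factor receptor beta of mural and peritubular cells, had 96.0, 70.1 and 119 CPM in Sow and 260, 310 and 258 CPM in M + E2 (log2 fold change 1.29, SE 0.335, adjusted p = 0.0429). Its level was 166, 242 and 322 CPM in Milk, 125, 199 and 309 CPM in Soy, and 236, 232 and 235 CPM in M + G. All formula libraries thus exceeded all Sow libraries for PDGFRB, and Milk 3 was the highest. GDNF, a growth factor for spermatogonial stem cells, had 0.940, 1.02 and 1.67 CPM in Sow and 3.17, 2.93 and 4.14 CPM in M + E2 (1.31, SE 0.360, adjusted p = 0.0465). Without any 1 of the M + E2 libraries neither was called (adjusted p from 0.0682 to 0.129 for PDGFRB and from 0.0894 to 0.123 for GDNF). The 3 high libraries of the contractile genes were the 3 highest in 1 of these 15 genes.

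Of 12 other actin, myosin, tropomyosin and calponin genes tested, 3 had the same 3 highest libraries, and none was called in any comparison. ACTB and ACTG1, the cytoplasmic actins, had at most 2812 and 1802 CPM, both in Soy 3. TPM1 had 723 CPM in Milk 2, 694 in Soy 3 and 512 in M + G 2, and 224 to 355 CPM elsewhere.

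Markers of other cell types were set beside these values. The 8 genes of fibroblasts and capsule summed to 33987 CPM in Milk 2, 35613 in Soy 3 and 30265 in M + G 2, against 6145 to 14541 CPM in the other 12 libraries. COL1A1, COL1A2 and COL3A1 carried that sum, COL1A1 with 17629, 18518 and 15432 CPM there, while DCN had 1396, 749 and 967 CPM there and 446 to 1185 CPM elsewhere, and LUM was highest in Sow 2. Sertoli cell markers summed to 3123, 3670 and 3680 CPM in Milk 2, Soy 3 and M + G 2, below the 4531 to 8133 CPM of the other libraries. Leydig cell markers were lowest in Milk 2 (10393 CPM) and in the 3 M + E2 libraries (13022 to 13942 CPM). Macrophage markers summed to 533 CPM in Milk 2, 349 in Soy 3 and 299 in M + G 2, against 214 to 290 CPM in the other 12 libraries. Markers of the epididymis and rete testis summed to 130, 168 and 359 CPM in the same order, the last being the highest of all libraries (54.3 to 310 CPM in the other 12), and EPCAM, an epithelial gene among them, had 21.6 CPM in M + G 2 and 0.114 to 4.55 CPM in the other 14. Erythroid markers summed to 1484, 931 and 1347 CPM, against 241 to 1359 CPM elsewhere, and germ cell markers to 150, 237 and 177 CPM, within the 96.3 to 269 CPM of the rest. In M + E2 against Sow, PI16 (fibroblasts and capsule) and STAR (Leydig cells) were called lower and SLC4A1 (erythroid cells) higher. There 5% of all genes were called. Over the alternatives the log2 fold change ran from −1.72 to −1.53 for PI16, from −1.79 to −1.29 for STAR and from 2.23 to 3.92 for SLC4A1. Leaving out any 1 of the M + E2 libraries ended these calls. The part of cell makeup in the contractile gene levels was not tested.

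**Figure D4:**
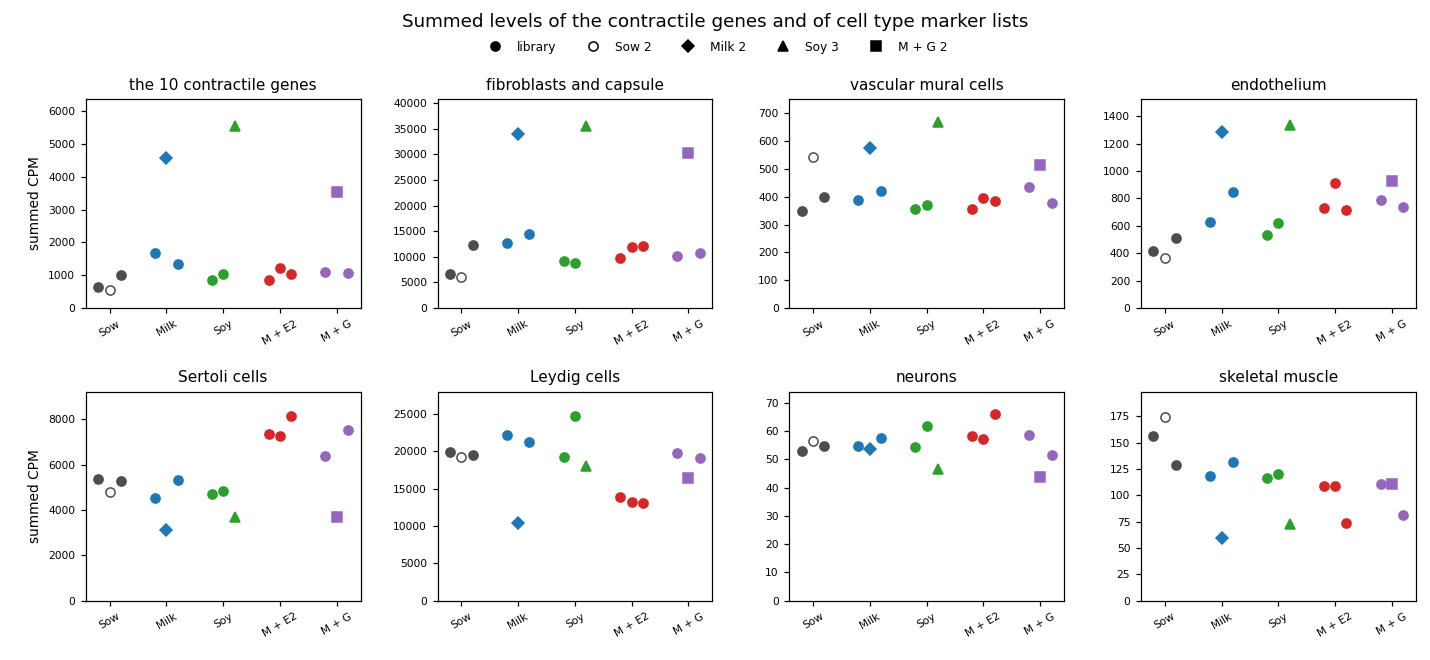
Summed CPM (vertical axes from 0) of the 10 contractile genes and of 7 cell type marker lists in each library, by diet. In Milk 2, Soy 3 and M + G 2 the contractile and fibroblast sums are highest and the Sertoli cell sum is lowest.

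The vessel wall was examined because its muscle expresses the same genes. Markers of vascular mural cells summed to 575 CPM in Milk 2, 668 in Soy 3 and 514 in M + G 2, against 351 to 435 CPM in the others except Sow 2, at 542 CPM. Among them NOTCH3 had 129, 216 and 133 CPM in Milk 2, Soy 3 and M + G 2, and 21.1 to 146 CPM in the other 12, of which Milk 3 (141) and M + E2 2 (146) exceeded Milk 2 and M + G 2. RGS5, a pericyte marker, had 198, 212 and 197 CPM in the 3 libraries, below Sow unnumbered at 219 CPM. Endothelial markers summed to 1289, 1339 and 926 CPM in Milk 2, Soy 3 and M + G 2, and to 363 to 915 CPM elsewhere. Skeletal muscle markers were low in all libraries, from 59.6 to 175 CPM in sum, and lowest in Milk 2. Markers of neurons summed to 53.2 to 56.5 CPM in Sow and 43.9 to 66.2 CPM in the formula diets, while TAGLN3 was highest in Sow.

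By Pearson's r of log2 CPM over the 15 libraries, a description only, the gene most like ACTA2 was CNN1 (r = 0.993) and the next TAGLN (0.989). MYH11 was most like MGLL (0.984) and LMOD1 (0.982), LMOD1 most like TGFB1I1 (0.986), DES most like FBLIM1 (0.965), TPM2 most like EFEMP2 (0.979), ACTG2 most like CCDC3 (0.975) and MYL9 most like GJA5 (0.922). TAGLN3 was most like INTU (0.903), SFR1 (0.903) and MELK (0.894). Without the 3 high libraries r was 0.804 for ACTG2 with CCDC3 and 0.849 for MYL9 with GJA5. It was 0.878 to 0.906 for the genes most like TAGLN3 and 0.930 to 0.977 for the other pairs given.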

How the data were processed

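RNA from the testes of 15 piglets was sequenced as single-end reads. The authors removed low-quality bases, aligned in the CLC Genomics Workbench and deposited raw counts of reads per gene, not normalized. The study excluded Sow 2 for low correlations with other libraries, and the fit here does so too. The methods describe a first mapping to the Porcine Translational Research Database and a second to the Ensembl pig genome, and how that affects these counts was not determined here. The analysis used edgeR 4.0.16 in R 4.3.3 (TMM, filterByExpr with minimum count 10, quasi-likelihood F test, limma 3.58.1). Over 14 libraries 15634 genes were tested, and 10 pairwise comparisons and 1 test over the 5 groups were made. log2 CPM used a prior count of 1. A count of 0 allows up to 3 reads, and this limit, like the intervals of counts, covers counting error only. Positions are from RefSeq Sscrofa11.1, matched by symbol. Piglets were separate animals. Samples were grouped by the diet in their labels. The table leaves 0 columns unused and no 2 libraries were identical.

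Every contractile gene is named. From other lists the genes named are those called, at most 3 per list, direction and comparison, plus the 3 genes most like each contractile gene and paralogs that could share reads. MYLK, CALD1, SMTN, KCNMB1, CACNA1C, FLNA, SRF, MYOCD, TPM1, NOTCH3, RGS5, EPCAM, DCN, LUM and the collagens were named after their values were seen. The members and lists were chosen with earlier results of these data known. The test was checked on simulated counts, drawn with the same dispersion for every gene and without outlying libraries. That check does not cover genes as uneven between piglets as most of these. Libraries of Milk and M + G with the same number deviated together from their group means (r = 0.233, 0.510 and 0.425). Neither the labels nor the methods state a pairing, so the replicate block was chosen from these data. Libraries of M + E2 did not deviate together with those of the same number in Milk (−0.339 to −0.0643) or in M + G (−0.147 to 0.123). As alternatives, Sow 2 was put back, the fit was limited to 2 groups, and further settings were each library left out, the replicate block, other filters, DESeq2 1.42.0 size factors and tests, edgeR's exact test, adjusted p alone and, added after seeing the data, leaving out 3 high libraries.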

Additional observations from a re-analysis of the deposited data

How the results depend on the processing

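Calls of the 10 genes depended on the processing in the comparisons with Sow. With all 3 Sow libraries, 3 genes were called in M + G (TAGLN3, DES and LMOD1; 10.3% of all genes) and 1 passed the 5-group test (7.62%). With only the 2 groups compared, 2 were called in M + E2 (MYH11 and LMOD1; 12.3%) and 3 in M + G (5.38%). edgeR's exact test called 2 in M + E2 (12.6%), 5 in M + G (6.48%), 1 in M + E2 against Milk (TAGLN, 0.636%) and 1 in M + E2 against M + G (TAGLN3, 0.674%). DESeq2's Wald test called 1 in Soy (0.217%) and 1 in M + E2 against M + G (0.102%), its likelihood ratio test 1 over the 5 groups (6.81%), and the unfiltered fit 1 (0.193%). Without Soy 3, Milk 2 and M + G 2, 2 were called in M + E2 (9.95%). With 1 library left out in turn, the count in M + E2 against Sow ran from 0 to 1. It was 1 with Sow 2 in place of either Sow library (18.4% and 21.3% of genes). In M + G against Sow it also ran from 0 to 1. The count there was 1 with Sow 2 in place of either Sow library (8.32% and 13% of genes). It was 0 without any 1 of the M + G libraries (0.00642% to 0.0192%). Over the 5 groups the count ran from 0 to 1. It was 1 without Sow unnumbered (0.166% of genes), Sow 3 (0.0703%), Milk 3 (6.67%), Soy unnumbered (0.0768%) or Soy 3 (0.0708%). Where it was 0, from 0.0257% to 0.0644% of genes passed. The replicate block left M + G against Milk at 0 called genes and changed no other call. The cause of these changes was not tested. No called difference changed sign. The 2 or 3 libraries per diet and their spread limit the precision.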
